A study of Caenorhabditis elegans with 6 samples.

Results

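The pharyngeal gland genes described here are those whose products regulate or fill the gland cells of the pharynx, the feeding organ of the nematode Caenorhabditis elegans. Members were the probe sets of the Affymetrix C. elegans Genome Array whose single gene symbol is hlh-6, a numbered phat gene or dod-6. This gave 10 probe sets, 1 for each of 10 genes, of 17118 genes measured by probe sets that name 1 gene, and all 10 were tested among 22548 probe sets. The genes are hlh-6, phat-1 to phat-8 and dod-6. Of these, 8 had been listed by name (hlh-6, phat-1 to phat-6 and dod-6), and the phat rule added phat-7 and phat-8. Every gene matched the RefSeq gene table of assembly WBcel235 by gene identifier.

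The study compared larvae of the third larval stage (L3) that were awake with larvae in L3 lethargus, the quiescent period that accompanies each molt. Both groups were wild-type N2 Bristol hermaphrodite cultures fed DA837 bacteria, started from hatchlings arrested without food and grown at 20 °C. L3 larvae were collected 32 hours after feeding began and chosen for activity, and lethargus larvae at 37 hours and chosen because they neither moved nor fed. Each group had 3 arrays, each from a separate pool of 200 whole animals, so stage, age and behaviour cannot be told apart. Nothing in the labels says that the pools were grown separately, and p-values measure the spread between pools.

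The gland cells lie in the rear bulb of the pharynx and send processes forward that open into its lumen. They are secretory cells, and their secretion is thought to serve digestion and, at the molt, the shedding of the pharyngeal lining. HLH-6 is a basic helix-loop-helix transcription factor needed for these cells to develop and to express several phat genes. The phat genes are named for pharyngeal gland toxin-related proteins and encode predicted secreted proteins described as mucin-like. The name dod-6 stands for downstream of DAF-16, the transcription factor of the insulin pathway. In whole animals, fewer cells of a type and less RNA per cell cannot be told apart.

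Levels are the authors' RMA values on the log2 scale. Median levels of the 6 arrays lay between 7.09 and 7.19. The 24 Bacillus subtilis control probe sets, which should have no target in worm RNA, reached at most 5.73 and served as a guide to background. One array was unlike the rest of its stage: L3 replicate 3 lay at -41.9 on the second principal component, where L3 replicates 2 and 1 lay at 3.95 and 7.25. On the first component it lay at 0.82, between L3 replicates 1 and 2 (-47.7 and -40.9) and the lethargus arrays (19.5 to 39.1). Its median level of 23 major sperm protein genes was 7.56, where L3 replicates 1 and 2 had 5.63 and 5.75 and the lethargus arrays 5.92 to 6.83. The identifiers of these probe sets all carry a mark for possible matches to related transcripts, so they may not be separate measures. For the gland genes, values without this array are given where it moved them.

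**Figure D1:**
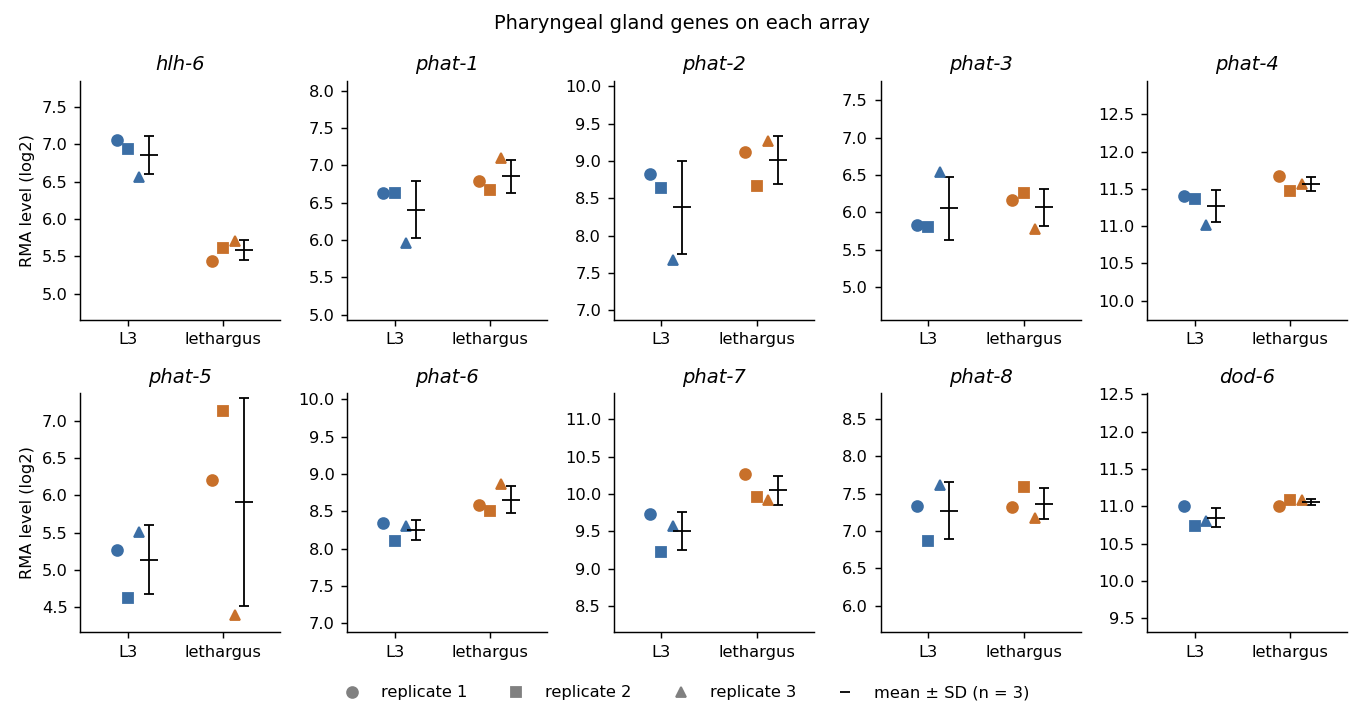
RMA level (log2) of the 10 pharyngeal gland genes on each array. Blue symbols are the 3 L3 arrays and orange symbols the 3 lethargus arrays, with the mean and SD (n = 3) in black; every panel spans the same range of log2 units. The lethargus values of hlh-6 lie below all its L3 values, those of phat-1, phat-4, phat-6, phat-7 and dod-6 lie above all theirs, and phat-5 is spread widely in lethargus.

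hlh-6, the regulator, fell 2.41-fold in lethargus and was the sole gland gene called in either direction. Of the other 9 genes, those for predicted secreted products among them, 0 were called, and all 9 had a higher mean in lethargus (53.6% of all probe sets did), with changes between 0.01 for phat-3 and 0.78 for phat-5 on the log2 scale. Their median change was 0.41, against 0.016 over all probe sets. A probe set was called at a limma p of 0.05 or less after Benjamini-Hochberg adjustment over 22548 probe sets. That rule called 0.754% of all probe sets higher and 0.213% lower in lethargus. Among the 8 listed genes 0 were called higher and 1 lower, and among all 10 the counts were the same.

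hlh-6 (sequence name T15H9.3) had levels of 7.06, 6.94 and 6.57 in L3 replicates 1 to 3 and of 5.44, 5.61 and 5.71 in lethargus replicates 1 to 3. All lethargus values were below all L3 values, with a gap of 0.86 between the closest pair, wider than the range within either stage (0.49 in L3 and 0.27 in lethargus). The L3 mean was 6.86 ± 0.25 (SD, n = 3) and the lethargus mean 5.59 ± 0.13 (n = 3), which is a change of -1.27 (SE 0.16, 95% interval -1.65 to -0.89) with an adjusted p of 0.0166 from limma. Over the whole array, 1.31% of probe sets had a lower change, and 0.497% had a smaller unadjusted p. The lethargus mean was under the highest control value of any array. On its own array, each lethargus value was still above the highest control, by 0.093 to 0.17, so hlh-6 was near background in lethargus and a larger fall could be understated. Its probe set carries no mark for possible matches to related transcripts.

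The call of hlh-6 changed with the arrays used, as did the number of calls over the whole array. Without L3 replicate 3, where hlh-6 was 0.43 below the mean of the other L3 arrays, the change was -1.41 with an adjusted p of 0.00326 from limma. Without L3 replicate 1 the adjusted p was 0.0786 and without L3 replicate 2 it was 0.113. Without lethargus replicates 1, 2 and 3 in turn it was 0.0953, 0.0874 and 0.0594. The change itself kept its direction throughout, between -1.41 and -1.17. Ordinary least squares, which does not share the variance between probe sets, gave an adjusted p of 0.252 and called 0 of 22548 probe sets in either direction.

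**Figure D2:**
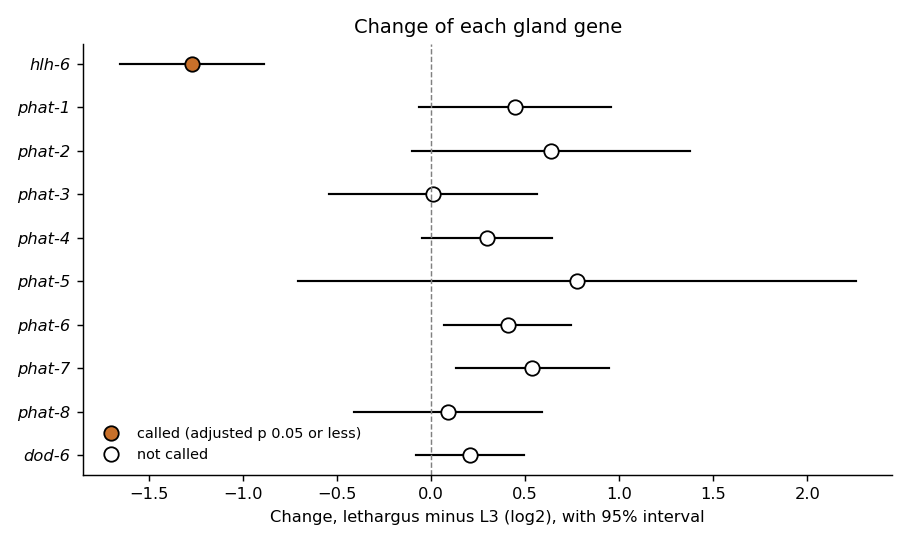
Change of each pharyngeal gland gene between stages, lethargus minus L3 on the log2 scale, with the 95% interval from limma (3 arrays in each stage). The filled point, hlh-6 at -1.27, is the only called gene; the intervals of phat-6 and phat-7 lie above 0 before adjustment, and the other 7 intervals include 0.

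In 5 of the 9 other genes every lethargus array lay above every L3 array, and in none did every lethargus array lie below. Over all probe sets, 7.81% had every lethargus array above and 6.57% had every one below. The 5 genes were phat-1, phat-4, phat-6, phat-7 and dod-6, of which 4 are among the 8 listed. The same 5 genes were separated after a second quantile normalization and after a shift of all arrays to a common median. For some of them the separation was narrow, with gaps of 0.014 for dod-6, 0.041 for phat-1 and 0.061 for phat-4 against 0.17 for phat-6 and 0.19 for phat-7.

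The best separated of these was phat-7 (C49G7.3), whose predicted product belongs to the same secreted family. Its levels were 9.73, 9.23 and 9.57 in L3 and 10.27, 9.96 and 9.92 in lethargus. The L3 mean was 9.51 ± 0.25 (SD, n = 3) and the lethargus mean 10.05 ± 0.19 (n = 3), which is a change of 0.54 (SE 0.17, 95% interval 0.13 to 0.95), with an unadjusted p of 0.0162 and an adjusted p of 0.291 from limma. A further probe set, which names both phat-7 and its neighbour phat-3 and so is no member, gave 10.67, 10.46 and 10.63 in L3 and 10.90, 11.08 and 10.91 in lethargus. Its change of 0.38 (SE 0.12, adjusted p 0.307) could not be assigned to either gene.

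phat-6 (T10B10.6) gave 8.34, 8.10 and 8.30 in L3 and 8.59, 8.51 and 8.86 in lethargus, on a probe set whose identifier marks it as one that can match related transcripts. The L3 mean was 8.25 ± 0.13 (SD, n = 3) and the lethargus mean 8.65 ± 0.18 (n = 3), which is a change of 0.41 (SE 0.14, 95% interval 0.071 to 0.75). Its unadjusted p was 0.0240 and its adjusted p 0.347 from limma. phat-6 and phat-7 were the members with an unadjusted p under 0.05 in the upward direction, 2 of 9, where 5.44% of all probe sets were higher at that level. hlh-6 was the 1 member lower at that level, where 5.11% of all probe sets were lower.

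phat-1 (C46H11.8) and phat-2 (C46H11.9) are neighbours, with 0 protein-coding genes between them in the RefSeq table. phat-1, a gland gene that depends on HLH-6, had levels of 6.63, 6.63 and 5.96 in L3 and 6.79, 6.67 and 7.10 in lethargus. phat-2 had 8.83, 8.63 and 7.67 in L3 and 9.12, 8.66 and 9.27 in lethargus. Both were lowest on L3 replicate 3 and highest on lethargus replicate 3, and for phat-2 the stages overlapped. Across the 6 arrays their levels had a Pearson correlation of 0.97, as a description of arrays that share stage and library. The probe set of phat-2 carries the mark for possible matches to related transcripts. The mark does not say which transcripts these are, and a match to phat-1 was not tested. The changes were 0.45 (95% interval -0.062 to 0.96) for phat-1 and 0.64 (-0.10 to 1.38) for phat-2, with adjusted p-values of 0.573 and 0.584 from limma. Without L3 replicate 3 they shrank to 0.22 and 0.29.

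phat-4 (T05B4.3), on an unmarked probe set, was also lowest on L3 replicate 3 but highest on lethargus replicate 1. Its levels were 11.41, 11.37 and 11.02 in L3 and 11.67, 11.47 and 11.57 in lethargus. The change was 0.30 (95% interval -0.045 to 0.64, adjusted p 0.579 from limma), and 0.18 without L3 replicate 3. The correlation of phat-4 over the 6 arrays was 0.91 with phat-1 and 0.96 with phat-2.

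phat-3, phat-5 and phat-8 had no separation between stages. phat-3 (C49G7.4) had levels of 5.83, 5.80 and 6.54 in L3 and 6.16, 6.26 and 5.78 in lethargus, a change of 0.01 (95% interval -0.54 to 0.56). phat-8 (F15A4.6) had 7.33, 6.87 and 7.62 in L3 and 7.32, 7.59 and 7.18 in lethargus, a change of 0.092 (-0.41 to 0.59). Both were highest on L3 replicate 3, the array on which phat-1, phat-2 and phat-4 were lowest. Their adjusted p-values were 0.997 and 0.966 from limma, and the intervals allow a change of about the size seen in phat-6 and phat-7. phat-3 changed sign with the second quantile normalization and with the common median, where it was -0.0017 and -0.0031.

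phat-5 (T05B4.11) was the most variable member. Its levels were 5.27, 4.62 and 5.51 in L3 and 6.20, 7.13 and 4.40 in lethargus. Lethargus replicate 3 was thus below every L3 array, and the other 2 lethargus arrays were above every one. The SD was 1.39 in lethargus against 0.46 in L3, and the change of 0.78 (SE 0.63, 95% interval -0.71 to 2.26) had an adjusted p of 0.831 from limma. Only 3 of its 6 values were above the highest background control of their own array, and the probe set carries the mark for matches to related transcripts. RNA quality was gauged from 5 worm control transcripts, as the level at the 3' end minus that at the 5' end. Averaged over these transcripts, the difference was largest on lethargus replicate 3 (1.63) and L3 replicate 2 (1.47), where phat-5 was lowest. It was smallest on lethargus replicate 2 (1.23), where phat-5 was highest. The remaining arrays did not follow this order. L3 replicate 1, lethargus replicate 1 and L3 replicate 3 had 1.29, 1.31 and 1.33, with phat-5 at 5.27, 6.20 and 5.51. Among the 5 transcripts catalase varied most, from 2.30 on L3 replicate 3 to 3.31 on lethargus replicate 3. The part of RNA quality in the result was not tested. Without lethargus replicate 3 the change of phat-5 was 1.53, and it was 0.17 without lethargus replicate 2, with no call in either case.

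dod-6 (T20G5.7) had the smallest SD of the members in both stages. Its levels were 11.00, 10.74 and 10.81 in L3 and 11.01, 11.09 and 11.08 in lethargus. The SD was 0.13 in L3 and 0.044 in lethargus, and the change was 0.21 (SE 0.12, 95% interval -0.078 to 0.50) with an adjusted p of 0.694 from limma. The upper end of that interval is a 1.41-fold rise. Its probe set also carries the mark for matches to related transcripts.

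The change of hlh-6 was set against that of each other gene on the same arrays. The level of the other gene minus that of hlh-6 was higher in lethargus for all 9 genes, by 1.28 for phat-3 up to 2.05 for phat-5. For phat-1 this difference ran from -0.61 to -0.31 on the L3 arrays and from 1.06 to 1.39 on the lethargus arrays. For phat-4 it ran from 4.35 to 4.45 and from 5.86 to 6.22. The stages did not overlap for 8 of the 9 genes, phat-5 being the exception. Of all other probe sets on the array, 94.1% were separated from hlh-6 in the same way, so this count would be met by most genes. A two-sided exact permutation test gave p = 0.1 for each of the 8 genes, the smallest p that 3 against 3 arrays allow, and 0.2 for phat-5. Adjusted over the 7 listed genes these were 0.117 and 0.2.

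**Figure D3:**
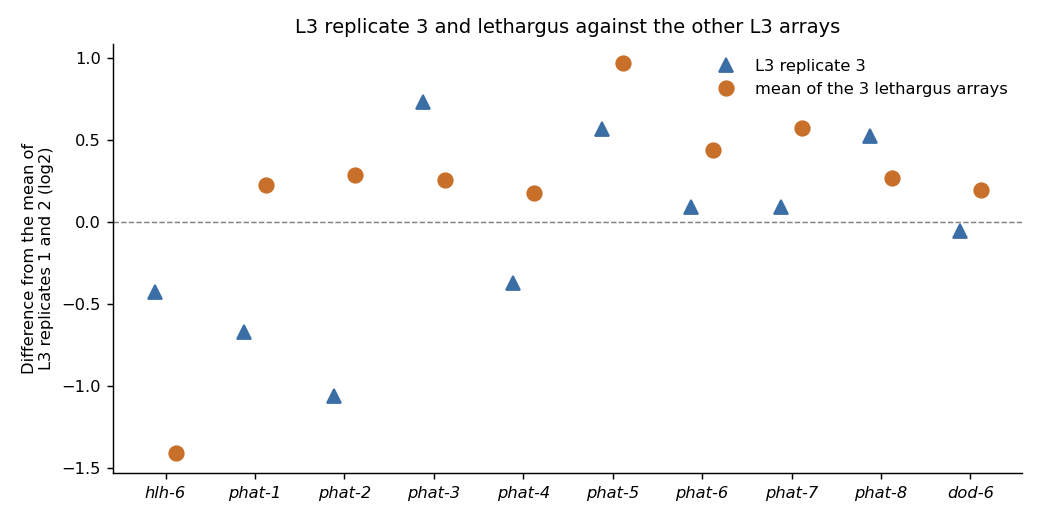
Level of each gland gene on L3 replicate 3 (blue triangles) and mean of the 3 lethargus arrays (orange circles), both as the log2 difference from the mean of L3 replicates 1 and 2. On L3 replicate 3, phat-1, phat-2, phat-4 and hlh-6 lay between -1.06 and -0.37, and phat-3, phat-5 and phat-8 between 0.52 and 0.73. In lethargus hlh-6 alone was lower.

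L3 replicate 3 divided the members into sets that differ from those made by stage. Against the mean of the other L3 arrays it was lower by -0.67 for phat-1, -1.06 for phat-2, -0.37 for phat-4 and -0.43 for hlh-6. It was higher by 0.73 for phat-3, 0.56 for phat-5 and 0.52 for phat-8. phat-6, phat-7 and dod-6 differed by 0.087, 0.091 and -0.056. Measured from L3 replicates 1 and 2 alone, lethargus was higher for all 9 genes other than hlh-6, by 0.18 for phat-4 up to 0.96 for phat-5, with a median of 0.27. The change of phat-1 to phat-4 relative to those 2 arrays was 0.18 to 0.29, a smaller difference than L3 replicate 3 showed from them in each of the 4 genes.

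Neighbouring genes did not all share a profile. phat-3 and phat-7 have 0 protein-coding genes between them, phat-7 and phat-5 have 14, and phat-5 and phat-4 have 2. phat-4 had a correlation of 0.12 with phat-5 and phat-3 of 0.18 with phat-7 over the 6 arrays. phat-3 correlated at 0.82 with phat-8, which lies on another chromosome, and at -0.74 with phat-1. The correlation of hlh-6 with the other members ran from -0.83 for phat-7 to -0.24 for phat-3. These are descriptions over 6 arrays that share a stage difference.

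The genes whose levels were most like that of hlh-6, among 10897 genes compared by Pearson correlation over the 6 arrays, were crn-1 (0.995), arf-5 (0.995) and Y39A3B.1 (0.994). crn-1 encodes a nuclease of the FEN family and arf-5 a small GTPase of the ARF family. Their changes were -0.32, -0.23 and -1.99, and of the 3 only Y39A3B.1 was called (adjusted p 0.0263 from limma). For phat-5, the other member with the largest change, the closest were mekk-3 (0.995), dhcr-7 (0.978) and T20F5.7 (0.978), with changes of 0.13, 0.083 and 0.19, none of them called. Likeness over so few arrays follows the shape of a profile and not its size.

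**Figure D4:**
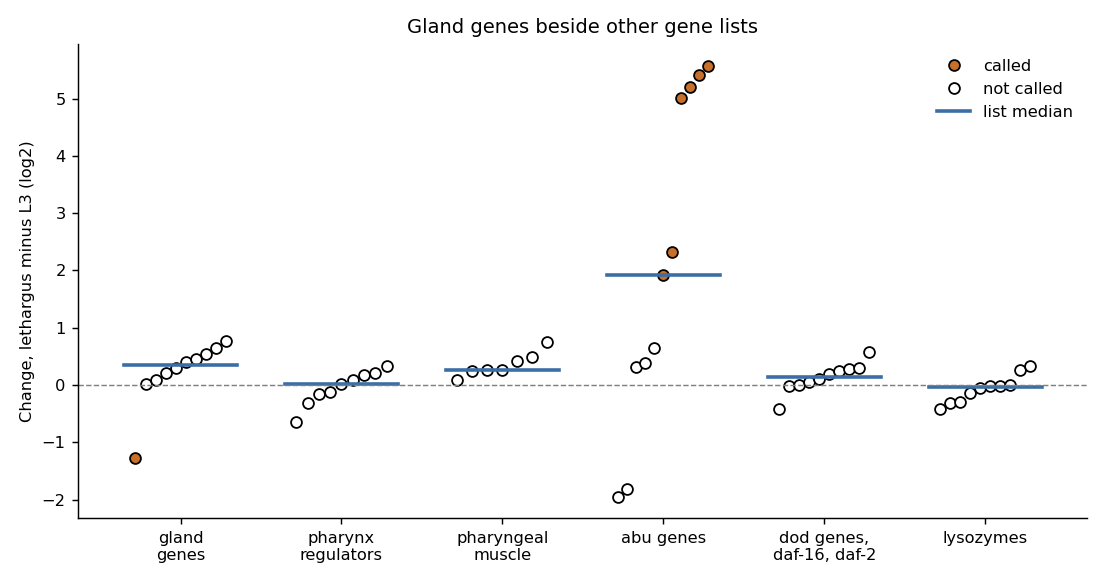
Change of each gene between stages (lethargus minus L3, log2) for the 10 gland genes and 5 other gene lists, 1 probe set per gene. Filled points are called, open points are not, and the blue line is the list median; hlh-6 is the only filled point outside the abu genes, whose median is 1.92.

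Regulators of the pharynx and its glands other than hlh-6 were not called. Of 9 measured, 0 were called higher and 0 lower, 5 had a higher mean and the median change was 0.015. In 1 every lethargus array lay above every L3 array and in 1 below (7.81% and 6.57% of all probe sets). The latter, eya-1, had the largest change of the list (-0.64, adjusted p 0.477 from limma). Its lethargus mean was under the highest control value of any array. pha-1 and pha-2 were within the range of the controls on every array, so a change in them could be missed. pha-4, the FoxA factor that specifies the pharynx, changed by 0.21 (SE 0.28, adjusted p 0.928 from limma), with levels of 8.07 ± 0.31 (SD, n = 3) in L3 and 8.28 ± 0.53 (n = 3) in lethargus. hlh-2, the E protein that pairs with many tissue-specific helix-loop-helix factors, changed by -0.32 (SE 0.18, adjusted p 0.675), from 6.70 ± 0.28 to 6.38 ± 0.20. The member with the smallest p was tbx-2, a T-box gene of pharyngeal muscle, with 0.33 (adjusted p 0.410).

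Pharyngeal muscle genes had small positive changes, as the phat genes had. All 7 had a higher mean in lethargus (53.6% of all probe sets did), with a median change of 0.26. In 3 of the 7 every lethargus array lay above every L3 array, where 7.81% of all probe sets had this. None was called, and the smallest p was that of the muscle myosin gene myo-5, with 0.75 (SE 0.18, adjusted p 0.146 from limma). The median level of the list lay between 9.23 and 9.57 on the L3 arrays and between 9.75 and 10.19 on the lethargus arrays. Its part in the values of the gland genes was not tested.

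The abu genes, for repeat proteins of the pharyngeal cuticle, included called rises. Of 11 measured among 15 asked for, 6 were called higher and 0 lower, where 0.754% and 0.213% of all probe sets were. The median change of the list was 1.92, against 0.43 for the 8 phat genes. abu-15, abu-10 and abu-6 rose by 5.58, 5.41 and 5.21, with adjusted p-values of 0.00260, 0.00138 and 0.00188 from limma. Of the 6 called genes only abu-10 was taken on a probe set without the mark for possible matches to related transcripts. Dimmer probe sets of these genes were not examined. The other called rises may therefore not be separate from each other. abu-12 and abu-13, named after their values were seen, were not called, with values of -1.82 and -1.95 (adjusted p 0.0739 and 0.101), and every lethargus array lay below every L3 array in these 2. The median of the list on L3 replicate 3 was -1.18 from the other L3 arrays. For the phat genes it was 0.089, a median over shifts of both signs, from -1.06 for phat-2 to 0.73 for phat-3.

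Further lists stand beside dod-6 and the secreted products. Of 8 other dod genes with daf-16 and daf-2, 0 were called, 7 of the 10 had a higher mean and the median change was 0.15. The smallest p belonged to daf-16, with 0.28 (SE 0.14, adjusted p 0.606 from limma). Of 10 lysozyme genes, whose products digest bacterial walls in the gut, 0 were called and 2 had a higher mean, with a median of -0.028, or -0.055 from L3 replicates 1 and 2 alone. lys-4 had the smallest p, with -0.42 (adjusted p 0.275).

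Marker lists of other cells gave values of both signs. Median changes were -0.10 for 5 intestinal markers, -0.033 for 4 of body wall muscle, -0.059 for 4 of neurons, 0.14 for 3 of the germline and 0.10 for 23 major sperm protein genes, with 0 called in each. Measured from L3 replicates 1 and 2 alone, the sperm median was 0.81, the intestinal -0.036 and the neuronal -0.12, so the low sperm value above rests on L3 replicate 3. Of 4 epidermal markers the median was -0.89, and the cuticle collagen gene rol-6 was called lower, narrowly (-1.05, adjusted p 0.0488 from limma). The list was mixed: bli-1 changed by 0.77 (adjusted p 0.919), with lethargus levels of 5.18, 7.66 and 9.49. Like rol-6, bli-1 and dpy-7 of this list are cuticle collagen genes, so its median cannot give the amount of epidermis.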

How the data were processed

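Expression was measured on 6 Affymetrix C. elegans Genome Arrays, 3 per stage, after amplification of the cDNA, per the labels' protocols. The deposited table holds log2 values that the authors made with RMA, per the submitters' processing notes. The sources used here do not give its version or settings. The table held 22625 probe sets, of which 77 Affymetrix controls were left out of tests. Arrays hold no counts, so the number of arrays limits the precision.

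The stages were compared on the deposited values with limma 3.58.1 (R 4.3.3; lmFit, then eBayes; two-sided), with Benjamini-Hochberg adjustment over all 22548 probe sets and 95% intervals. R/maanova, named in the series' design text, was not run. Permutation tests used scipy 1.17.1. Other genes were taken by their brightest probe set.

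Members, gene lists and tests were chosen with earlier results of these data known. Named genes are all members, pha-4 and hlh-2, the 3 largest called changes of each other list (with none called, the smallest p), and the 3 genes most like hlh-6 and phat-5. phat-7 and phat-8 were added by the rule afterwards. rol-6, bli-1, dpy-7, eya-1, pha-1 and pha-2 were named after their values were seen. No sequences are shown, since none were at hand.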

Additional observations from a re-analysis of the deposited data

How the results depend on the processing

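No gland gene was called higher under any of the 15 alternatives. The fall of hlh-6 kept its direction under all 14 of its alternatives and its call under 7, with adjusted p-values from 0.00326 to 0.0201 in limma. It was -1.27 on the log2 scale with the pool number as a replicate block (adjusted p 0.134) and with ordinary least squares (adjusted p 0.252), both without a call, which left 0 gland genes called lower. With each array left out in turn it ran from -1.41 to -1.17, and the gland genes called lower from 0 to 1. The deviations of same-numbered pools had correlations of 0.26, -0.24 and -0.29, which are of both signs. With so few arrays per stage, deviations within a stage depend on each other. These correlations therefore cannot show whether same-numbered pools were grown or handled together.

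Over the whole array, the probe sets called higher and lower numbered 170 and 48. They were 262 and 231 with array weights, 56 and 3 with the replicate block, and 0 and 0 with ordinary least squares. A variance trend with robust fitting gave 77 lower. With each array left out they ran from 75 to 573 higher and from 0 to 563 lower, both highest without L3 replicate 3. The cause was not tested.

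phat-3, near 0, turned negative with a second quantile normalization (-0.0017), with the common median (-0.0031) and with some arrays left out (lowest -0.12, highest 0.25). phat-8 ran from -0.11 to 0.27 with arrays left out. All other members kept their direction under every alternative that was run. The mean over all probe sets of a gene gave the members their own single probe set, on a table of genes. R/maanova was not run. Alternatives chosen after the data were seen were the counts with phat-7 and phat-8, all those for the separation of the stages (4 to 5 of the 8 listed genes) and those for differences from hlh-6, which kept their direction.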
